A study of Arabidopsis thaliana with 8 samples.

Results

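The genes described here are the WRKY transcription factors of *Arabidopsis thaliana* that were expressed in roots of the Gα null mutant *gpa1-2* and of its wild type, the WS ecotype. They were chosen as genes whose description in the deposited tables holds the word WRKY and whose level reached 1 FPKM (mapped fragments scaled both to the length of the exons and to the size of the library) in at least 1 of 4 conditions. There were 60 such genes of 71 with the word in their description, and of 20350 genes of any kind that reached 1 FPKM out of 33544 listed. Of the 60, 59 carry a WRKY number and the other is AT3G32090, described only as a WRKY family transcription factor. The rule used the level and not the response to ATP or the genotype. *WRKY12*, *WRKY19* and *RRS1*, whose descriptions lack the word, fell outside it.

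The 4 conditions were ATP-treated *gpa1-2* roots, untreated *gpa1-2* roots, ATP-treated WS roots and untreated WS roots, with 2 replicates each in the labels. Seedlings were grown for 4 days per the labels, and ATP treatment was 60 min on medium containing ATP, with root tips taken for RNA per the study's methods. The same methods give a longer growth than the labels. The labels name no ATP dose, and the dose differs between the study's methods and its results. *gpa1-2* carries a null allele of *GPA1*, the only canonical Gα subunit gene of Arabidopsis, in every cell of the plant, and is a single allele in the WS background. The labels place the untreated roots before ATP treatment and name no transfer to medium without ATP. Unless there was one, the effects of ATP, of the transfer and of the passing of 60 min cannot be told apart. The tables hold 1 value per gene and condition, so no spread between replicates could be computed, no test was possible and no p-value is given. The tables are named by genotype, but their columns carry only a number, and the treatment of each column was taken as given with the gene set, not from the labels. Every direction given for ATP rests on that assignment.

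WRKY proteins are a plant family of transcription factors named after a conserved stretch of amino acids that, together with a zinc finger, binds the W-box of target promoters. They are grouped by the number of WRKY domains and by the type of zinc finger: group I has paired domains, group II (IIa to IIe) a single domain with the same kind of zinc finger, and group III a different zinc finger. Many act in defence signalling downstream of mitogen-activated protein kinases, often in networks of mutual and self regulation, and others in hormone responses, phosphate supply, senescence and development. Extracellular ATP is sensed by plant cells as a signal, and the study asked about the part of heterotrimeric G proteins, of which GPA1 is the Gα subunit, in the response of roots to it.

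The 4 columns corresponded to between 11769870 and 13483730 recovered reads. *GPA1* itself stood at 31.1 FPKM in ATP-treated and 28.6 FPKM in untreated *gpa1-2*, against 46.5 FPKM in ATP-treated and 51.9 FPKM in untreated WS, lower in both mutant columns but not absent. All 7 root marker genes reached 1 FPKM, among them *WER*, *SCR*, *SHR* and *PIN2*. Of 4 leaf genes that roots should lack, 2 did, and their summed level was 1.72 FPKM in ATP-treated and 8.36 FPKM in untreated *gpa1-2*, and 2.83 FPKM in ATP-treated and 6.10 FPKM in untreated WS. The leaf gene *LHCB2.1* was at 0 in untreated *gpa1-2*. The summed root markers were higher with ATP, with 202.7 FPKM in ATP-treated and 117.7 FPKM in untreated *gpa1-2*, and 228.5 FPKM in ATP-treated and 128.6 FPKM in untreated WS. Most of that lay in *PIN2* and *WOX5*. On log2(FPKM + 1), *WOX5* was higher with ATP by 2.97 in *gpa1-2* and 3.81 in WS, and *PIN2* by 0.82 in *gpa1-2* and 1.14 in WS. *GL2* was lower with ATP in *gpa1-2*, and *WER* and *COBL9* were lower with ATP in WS, none of these 3 past a difference of 1. The part of these shifts in the WRKY values was not tested.

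The WRKY genes moved in both directions after ATP, and by more than most genes. The response to ATP is given as the difference of log2(FPKM + 1), ATP-treated minus untreated, and a gene was called higher or lower where the difference was 1 or more in size. In *gpa1-2*, 10 of 60 WRKY genes (16.7%) were called higher, against 3.52% of all 20350 genes, and 7 (11.7%) were called lower, against 3.69% of all genes. In WS, 5 (8.33%) were called higher, against 3.67% of all genes, and 9 (15.0%) were called lower, against 4.18%. *WRKY54*, *WRKY62* and *WRKY63*, which are among the 10, reached 1 FPKM only in ATP-treated columns, and *WRKY41*, which is among the 7, only in untreated ones, so these 4 passed the limit only through columns where they are high. The medians hid this, since the 60 responses had a median of 0.10 in *gpa1-2* and 0.10 in WS, beside 0.02 in *gpa1-2* and -0.01 in WS for all genes. The middle range of the responses, between the lower and upper quartiles, was -0.51 to 0.70 for WRKY genes and -0.25 to 0.29 for all genes in *gpa1-2*, and -0.52 to 0.60 for WRKY genes and -0.27 to 0.25 for all genes in WS.

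Of the 21 genes called in either genotype, 10 were called in both. *WRKY23*, *WRKY29*, *WRKY48* and *WRKY54* were called higher in both, which is 4 of the 10 in *gpa1-2* and 4 of the 5 in WS. *WRKY18*, *WRKY30*, *WRKY33*, *WRKY53*, *WRKY60* and *WRKY70* were called lower in both, which is 6 of the 7 in *gpa1-2* and 6 of the 9 in WS. A further 6 genes (*WRKY22*, *WRKY43*, *WRKY62*, *WRKY63*, *WRKY65* and *WRKY66*) passed as higher in *gpa1-2* but not in WS, and 1 (*WRKY61*) in WS but not in *gpa1-2*. All 6 were also higher with ATP in WS, below the threshold. Their responses there were 0.94 for *WRKY65*, 0.92 for *WRKY63*, 0.82 for *WRKY66*, 0.78 for *WRKY62*, 0.77 for *WRKY22* and 0.24 for *WRKY43*. The response of *WRKY61* in *gpa1-2* was 0.69. Of the 6, *WRKY62* reached 1 FPKM in ATP-treated *gpa1-2* alone, the value on which its call rests. As lower, *WRKY41* passed in *gpa1-2* but not in WS, and *WRKY40*, *WRKY46* and AT3G32090 in WS but not in *gpa1-2*. None of the 60 was called in opposite directions, 50 moved to the same side of 0 whichever the genotype, and 39 were called in neither. The same counts were not computed over all genes, so no base rate stands beside this split. Across the 60 genes the responses in the 2 genotypes had a Pearson r of 0.835, and across all 20350 genes r was 0.378. Both values are descriptions across genes, which are not independent replicates. The 20350 genes were not matched to the 60 in spread of response or in reads, and both bear on r. The 2 values therefore do not show that WRKY genes respond more alike in the 2 genotypes than other genes.

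**Figure D1:**
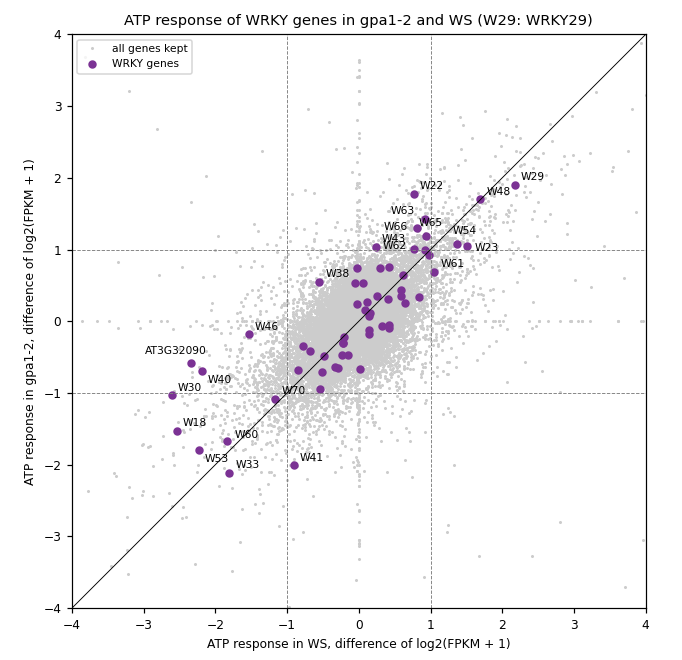
ATP response of each gene in WS (x axis) and *gpa1-2* (y axis), both as differences of log2(FPKM + 1), for the 60 WRKY genes (purple) and all 20350 genes (grey, of which 165 lie outside the axes). Dashed lines mark a size of 1, the diagonal marks equal responses, and labels shorten WRKY29 to W29; *WRKY29*, *WRKY48* and *WRKY23* sit at the upper right and *WRKY18*, *WRKY33* and *WRKY53* at the lower left, while *WRKY40*, *WRKY30* and AT3G32090 lie above the diagonal.

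The WRKY transcript was unevenly shared among the genes. Summed over the 60 genes the level was 2276 FPKM in ATP-treated and 2102 FPKM in untreated *gpa1-2*, and 2007 FPKM in ATP-treated and 2271 FPKM in untreated WS, and the 6 highest genes held between 43.8% and 48.3% of each sum. The identity of those genes differed with treatment. *WRKY33*, *WRKY40*, *WRKY18*, *WRKY6* and *WRKY65* were the 5 genes at 100 FPKM or more in untreated roots of both genotypes, whereas *WRKY65*, *WRKY29* and *WRKY6* were the 3 genes at that level in ATP-treated roots of both. At the low end, 8 genes (*WRKY8*, *WRKY13*, *WRKY41*, *WRKY50*, *WRKY54*, *WRKY62*, *WRKY63* and *WRKY74*) were below 1 FPKM in at least 1 condition. Just inside the limit were *WRKY13* with a highest level of 1.02 FPKM and *WRKY50* with 1.102 FPKM, and just outside it *WRKY58* with 0.847 FPKM and *WRKY10* with 0.490 FPKM. The 11 genes left out by the limit were *WRKY10*, *WRKY34*, *WRKY49*, *WRKY55*, *WRKY58*, *WRKY59*, *WRKY64*, *WRKY67*, *WRKY68*, *WRKY71* and AT5G46310, and 4 of them (*WRKY49*, *WRKY64*, *WRKY67* and AT5G46310) had no read in any column.

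**Figure D2:**
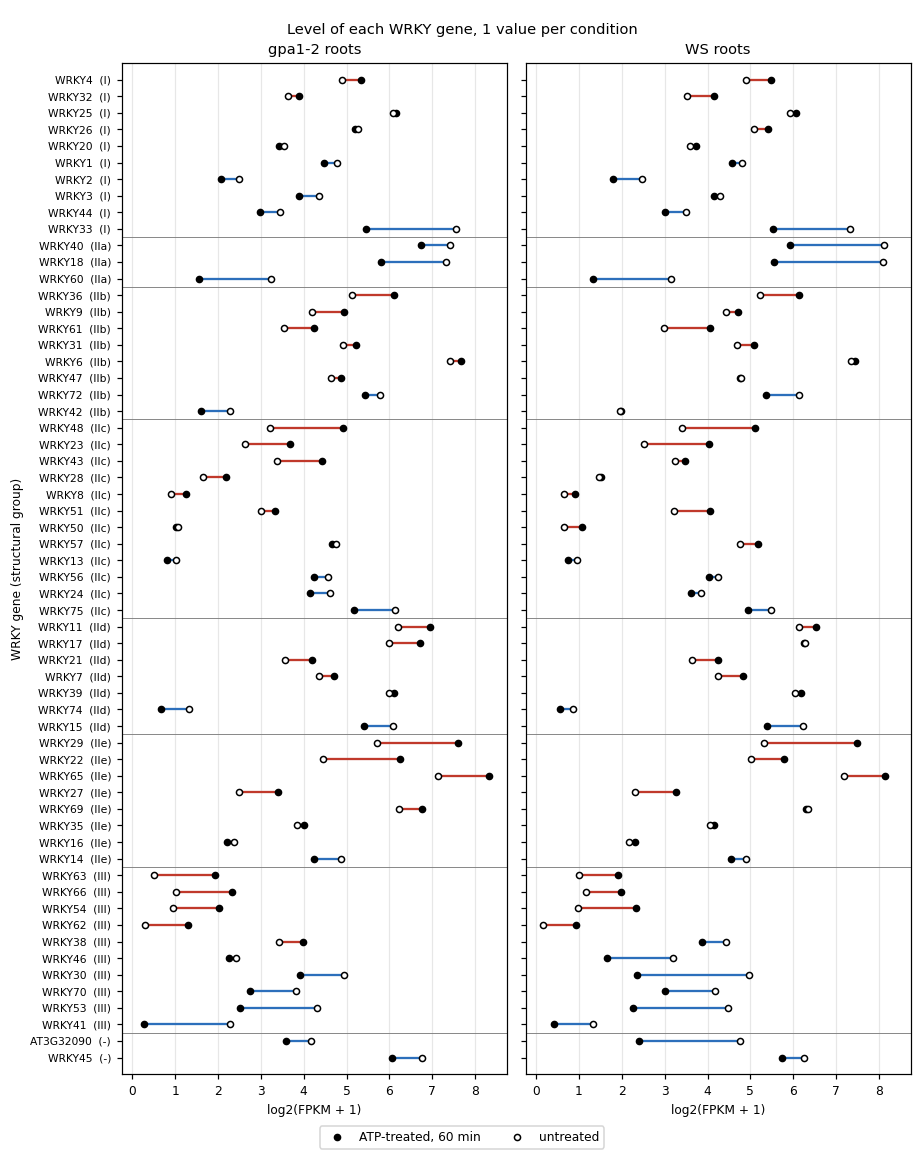
Level of each of the 60 WRKY genes as log2(FPKM + 1) in *gpa1-2* roots (left) and WS roots (right), ordered by structural group, with ATP-treated values filled and untreated values open, 1 value per condition. The joining line is red where the ATP-treated value is higher and blue where it is lower; long blue lines mark *WRKY33*, *WRKY18* and *WRKY60* in both genotypes, and long red lines mark *WRKY29*, *WRKY48* and *WRKY65*.

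Counting error was taken from the reads behind each value. The low values of each column lie on whole multiples of what 1 read is worth (within 0.1 read for 98.9% to 99.3% of them), so reads were recovered, and an exact 95% interval (Clopper-Pearson, conditional on the total) was computed for the log2 ratio of scaled reads, ATP-treated over untreated. The interval covers counting error only and compares the columns, not the conditions. Since it has no pseudocount, it can lie further from 0 than the response printed beside it for genes of low level. In the RefSeq annotation of assembly TAIR10.1, 11 of the 60 genes (*WRKY1*, *WRKY2*, *WRKY4*, *WRKY9*, *WRKY29*, *WRKY33*, *WRKY40*, *WRKY41*, *WRKY53*, *WRKY61* and *WRKY69*) overlap another annotated gene. Whether strand was used in counting, and how reads that match several related WRKY genes were treated, is not given in the sources used here, so the values of overlapping and closely related genes are uncertain to that extent.

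Group IIa was lower with ATP throughout: all of its 3 genes were called lower in WS, and 2 of them in *gpa1-2*. Over all genes, 3.52% were called higher and 3.69% lower in *gpa1-2*, and 3.67% higher and 4.18% lower in WS. These shares stand beside the count of each structural group below. The groups hold 3 to 12 genes, too few to set against them. *WRKY18*, *WRKY40* and *WRKY60* encode closely related proteins that bind one another and act in defence and abscisic acid signalling. *WRKY18* stood at 54.8 FPKM in ATP-treated and 159.7 FPKM in untreated *gpa1-2*, and at 45.8 FPKM in ATP-treated and 271.5 FPKM in untreated WS. Both treated values lay far below both untreated ones, and the untreated WS value was the highest. The ATP-treated level was 2.91-fold lower in *gpa1-2* (response -1.53, interval of the log2 read ratio -1.67 to -1.42) and 5.93-fold lower in WS (response -2.54, interval -2.70 to -2.44).

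*WRKY40* had 105.9 FPKM in ATP-treated and 171.1 FPKM in untreated *gpa1-2*, and 60.0 FPKM in ATP-treated and 277.9 FPKM in untreated WS. It was lower with ATP in both, by 1.62-fold in *gpa1-2* (response -0.69, interval -0.80 to -0.59), which did not reach the threshold, and by 4.63-fold in WS (response -2.19, interval -2.33 to -2.09). *WRKY60*, the least abundant of the 3, had 1.94 FPKM in ATP-treated and 8.37 FPKM in untreated *gpa1-2*, and 1.49 FPKM in ATP-treated and 7.91 FPKM in untreated WS. It was lower with ATP by a like amount in both genotypes, with responses of -1.67 (interval -2.82 to -1.45) in *gpa1-2* and -1.84 (interval -3.25 to -1.65) in WS. Summed over group IIa, the level was 162.6 FPKM in ATP-treated and 339.2 FPKM in untreated *gpa1-2*, against 107.3 FPKM in ATP-treated and 557.4 FPKM in untreated WS.

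In group I, whose proteins have paired WRKY domains, *WRKY33* alone of 10 genes was called, and it was called lower in both genotypes. *WRKY33* is a substrate of the kinases MPK3 and MPK6 and drives the synthesis of camalexin in defence against necrotrophic fungi. Its level was 42.7 FPKM in ATP-treated and 188.4 FPKM in untreated *gpa1-2*, and 44.9 FPKM in ATP-treated and 159.6 FPKM in untreated WS. The treated values were close to each other, and the untreated value was higher in *gpa1-2*. ATP-treated levels were 4.41-fold lower in *gpa1-2* (response -2.12, interval -2.25 to -2.04) and 3.55-fold lower in WS (response -1.81, interval -1.94 to -1.72).

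The other 9 genes of group I differed by less than 1 between treatments in both genotypes, with responses between -0.48 and 0.44 in *gpa1-2* and between -0.68 and 0.65 in WS. *WRKY25*, which acts with *WRKY26* and *WRKY33* in heat tolerance, was the most abundant of them, at 70.1 FPKM in ATP-treated and 66.5 FPKM in untreated *gpa1-2* and at 65.9 FPKM in ATP-treated and 59.6 FPKM in untreated WS. *WRKY26* lay between 33.0 and 41.7 FPKM in the 4 conditions, *WRKY4* between 28.7 and 43.7 FPKM, *WRKY1* between 21.1 and 27.0 FPKM, and *WRKY3*, which with *WRKY4* acts against necrotrophs, between 13.9 and 19.5 FPKM. *WRKY32* lay between 10.4 and 16.9 FPKM, and *WRKY20* between 9.80 and 12.3 FPKM. *WRKY44*, also known as *TTG2* for its part in trichome and seed coat development, had 6.84 FPKM in ATP-treated and 9.96 FPKM in untreated *gpa1-2*, and 7.05 FPKM in ATP-treated and 10.3 FPKM in untreated WS. *WRKY2*, which acts in polarity of the zygote, was the lowest of the group, at 2.48 to 4.60 FPKM. *WRKY2* and *WRKY44*, together with *WRKY1* and *WRKY3*, had negative responses in both genotypes, while those of *WRKY4*, *WRKY25* and *WRKY32* were positive in both.

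Group III, many of whose genes respond to salicylic acid, was divided. In *gpa1-2* 4 of its 10 genes were called higher and 4 lower, against 3.52% and 3.69% of all genes. In WS 1 was called higher and 4 lower, against 3.67% and 4.18%. Of those called in *gpa1-2*, *WRKY54*, *WRKY62* and *WRKY63* reached 1 FPKM only in ATP-treated columns, and *WRKY41* only in untreated ones. *WRKY53*, a regulator of leaf senescence, had 4.72 FPKM in ATP-treated and 18.9 FPKM in untreated *gpa1-2*, and 3.77 FPKM in ATP-treated and 21.4 FPKM in untreated WS. Both treated values were lower, by 4.00-fold in *gpa1-2* (response -1.80, interval -2.39 to -1.63) and by 5.68-fold in WS (response -2.23, interval -2.94 to -2.09). *WRKY70*, which acts where salicylic acid and jasmonate signalling meet, had 5.73 FPKM in ATP-treated and 13.2 FPKM in untreated *gpa1-2*, and 7.09 FPKM in ATP-treated and 17.1 FPKM in untreated WS. Its responses were -1.08 in *gpa1-2* (interval -1.66 to -0.77) and -1.16 in WS (interval -1.69 to -0.87), so the genotypes were alike in size of response.

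*WRKY30*, which is induced by oxidative stress, had 14.1 FPKM in ATP-treated and 29.9 FPKM in untreated *gpa1-2*, and 4.14 FPKM in ATP-treated and 30.4 FPKM in untreated WS. The untreated values were alike and the treated ones were not. The ATP-treated level was 2.12-fold lower in *gpa1-2* (response -1.03, interval -1.35 to -0.83) and 7.34-fold lower in WS (response -2.61, interval -3.33 to -2.45), the largest response in size of any WRKY gene here on this scale. With a pseudocount of 0.1 FPKM *WRKY41* in *gpa1-2* (-3.67) passed it (*WRKY30* in WS -2.85). *WRKY46*, which with *WRKY54* and *WRKY70* acts in brassinosteroid and drought responses, had 3.75 FPKM in ATP-treated and 4.39 FPKM in untreated *gpa1-2*, and 2.16 FPKM in ATP-treated and 8.17 FPKM in untreated WS. It was called lower in WS (response -1.54, interval -2.62 to -1.27), and in *gpa1-2* its response of -0.18 had an interval of -0.83 to 0.37 that includes no change.

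*WRKY38*, a repressor of basal defence, had 14.7 FPKM in ATP-treated and 9.71 FPKM in untreated *gpa1-2*, and 13.7 FPKM in ATP-treated and 20.5 FPKM in untreated WS. Its response was 0.55 in *gpa1-2* (interval 0.21 to 0.99) and -0.55 in WS (interval -0.92 to -0.25), the treated values being alike and the untreated ones apart. *WRKY41*, known for a part in seed dormancy, rested on few reads, with 2 in ATP-treated and 34 in untreated *gpa1-2*, and 3 in ATP-treated and 13 in untreated WS. Its level was 0.211 FPKM in ATP-treated and 3.87 FPKM in untreated *gpa1-2*, and 0.344 FPKM in ATP-treated and 1.53 FPKM in untreated WS. The responses on the log2(FPKM + 1) scale were -2.01 in *gpa1-2* and -0.91 in WS. The log2 read ratio, which has no pseudocount, is further from 0, with an interval of -7.30 to -2.23 in *gpa1-2* and of -4.60 to -0.29 in WS, both below no change and overlapping.

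The 4 genes of group III that were higher with ATP were of low abundance. *WRKY54*, the close relative of *WRKY70*, had 3.09 FPKM in ATP-treated and 0.929 FPKM in untreated *gpa1-2*, and 4.04 FPKM in ATP-treated and 0.957 FPKM in untreated WS. It was called higher in both genotypes, with a response of 1.08 (interval 0.78 to 2.79) in *gpa1-2* and 1.37 (interval 1.15 to 3.12) in WS, the opposite direction to *WRKY70* and *WRKY46*. *WRKY63*, also called *ABO3* for its abscisic acid phenotype, had 2.80 FPKM in ATP-treated and 0.412 FPKM in untreated *gpa1-2*, and 2.76 FPKM in ATP-treated and 0.992 FPKM in untreated WS. Its response was 1.43 (interval 1.03 to 5.15) in *gpa1-2* and 0.92 (interval 0.18 to 2.96) in WS.

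*WRKY66* had 4.02 FPKM in ATP-treated and 1.04 FPKM in untreated *gpa1-2*, and 2.96 FPKM in ATP-treated and 1.25 FPKM in untreated WS. Its response was 1.30 (interval 0.63 to 3.53) in *gpa1-2*, and 0.82 in WS with an interval of -0.10 to 2.76 that includes no change. *WRKY62*, which represses basal defence together with *WRKY38*, had 14 reads in ATP-treated and 2 in untreated *gpa1-2*, and 8 in ATP-treated and 1 in untreated WS. Its level was 1.47 FPKM in ATP-treated and 0.227 FPKM in untreated *gpa1-2*, and 0.912 FPKM in ATP-treated and 0.117 FPKM in untreated WS. Its response was 1.01 (interval 0.58 to 5.88) in *gpa1-2* and 0.78 (interval 0.06 to 8.43) in WS. All 4 of these genes were higher in the treated columns of both genotypes, on between 1 and 52 reads a column. They were set apart because they were called higher in *gpa1-2*. *WRKY54*, *WRKY62* and *WRKY63* also reached 1 FPKM only in ATP-treated columns. Their shared direction therefore follows in part from how they were chosen.

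Group IIe held *WRKY29*, which had the largest rise of the 60 in each genotype on the log2(FPKM + 1) scale. With a pseudocount of 0.1 FPKM the low-count genes *WRKY63* (2.50) and *WRKY62* (2.27) passed it in *gpa1-2* (*WRKY29* 1.92), as did *WRKY62* (2.22) in WS (*WRKY29* 2.20). In *gpa1-2* 3 of its 8 genes were called higher, in WS 1 was, and none was called lower in either. *WRKY29*, which with *WRKY22* lies downstream of the kinase cascade that flagellin sets off, had 194.3 FPKM in ATP-treated and 51.2 FPKM in untreated *gpa1-2*, and 179.1 FPKM in ATP-treated and 38.8 FPKM in untreated WS. It was 3.79-fold higher with ATP in *gpa1-2* (response 1.90, interval 1.77 to 2.08) and 4.61-fold higher in WS (response 2.18, interval 2.03 to 2.39). *WRKY22* had 74.5 FPKM in ATP-treated and 21.0 FPKM in untreated *gpa1-2*, and 54.3 FPKM in ATP-treated and 31.5 FPKM in untreated WS. It was 3.55-fold higher with ATP in *gpa1-2* (response 1.78, interval 1.62 to 2.04) and 1.72-fold higher in WS (response 0.77, interval 0.59 to 0.98), below the threshold.

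*WRKY65* was the most abundant WRKY gene in both treated columns, with 322.7 FPKM in ATP-treated and 140.4 FPKM in untreated *gpa1-2*, and 280.2 FPKM in ATP-treated and 145.7 FPKM in untreated WS. Its responses of 1.20 (interval 1.11 to 1.30) in *gpa1-2* and 0.94 (interval 0.85 to 1.04) in WS lay on either side of the threshold. *WRKY27*, which affects symptoms of bacterial wilt, had 9.60 FPKM in ATP-treated and 4.58 FPKM in untreated *gpa1-2*, and 8.66 FPKM in ATP-treated and 3.91 FPKM in untreated WS. It came close to the threshold in both, with responses of 0.92 (interval 0.61 to 1.54) in *gpa1-2* and 0.98 (interval 0.64 to 1.67) in WS.

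Of the other genes of group IIe, *WRKY69* had 107.1 FPKM in ATP-treated and 74.0 FPKM in untreated *gpa1-2*, and 77.4 FPKM in ATP-treated and 80.3 FPKM in untreated WS. It was thus higher with ATP in *gpa1-2* (response 0.53) and all but level in WS (response -0.05). *WRKY14* was lower with ATP in both, with responses of -0.64 in *gpa1-2* and -0.34 in WS, at levels of 17.8 to 28.7 FPKM. *WRKY35* lay between 13.3 and 16.7 FPKM, and *WRKY16*, which encodes a WRKY domain fused to an immune receptor, between 3.49 and 4.18 FPKM. The summed level of the 8 genes was 744.6 FPKM in ATP-treated and 337.0 FPKM in untreated *gpa1-2*, and 642.9 FPKM in ATP-treated and 348.2 FPKM in untreated WS.

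In group IIc 3 of 12 genes were called higher in *gpa1-2*, 2 in WS, and none lower in either. *WRKY48*, a repressor of basal defence that is induced by stress, had 29.3 FPKM in ATP-treated and 8.34 FPKM in untreated *gpa1-2*, and 33.3 FPKM in ATP-treated and 9.62 FPKM in untreated WS. The genotypes gave nearly the same response, 1.70 (3.52-fold, interval 1.55 to 2.08) in *gpa1-2* and 1.69 (3.46-fold, interval 1.54 to 2.05) in WS. *WRKY23*, an auxin-responsive gene of root development, had 11.8 FPKM in ATP-treated and 5.19 FPKM in untreated *gpa1-2*, and 15.4 FPKM in ATP-treated and 4.76 FPKM in untreated WS. It was called higher in both, with a response of 1.05 (interval 0.84 to 1.54) in *gpa1-2* and 1.51 (interval 1.34 to 2.05) in WS. With upper-quartile scaling the response in *gpa1-2* was just under 1 (0.998).

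*WRKY43* had 20.4 FPKM in ATP-treated and 9.44 FPKM in untreated *gpa1-2*, and 10.2 FPKM in ATP-treated and 8.44 FPKM in untreated WS. The ATP-treated *gpa1-2* value stood apart from the other 3. Its response was 1.04 (interval 0.55 to 1.64) in *gpa1-2*, and 0.24 in WS with an interval of -0.42 to 0.95 that includes no change. *WRKY75*, which is induced by phosphate starvation and acts in root development, was the most abundant of the group without ATP, with 35.3 FPKM in ATP-treated and 69.1 FPKM in untreated *gpa1-2*, and 30.0 FPKM in ATP-treated and 44.0 FPKM in untreated WS. It was lower with ATP in both, with responses of -0.95 (interval -1.20 to -0.74) in *gpa1-2* and -0.54 (interval -0.83 to -0.28) in WS, neither past the threshold. In *gpa1-2* it was called lower with upper-quartile scaling (-1.01) and with quantile normalization (-1.01).

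The remaining 8 genes of group IIc were called in neither genotype. *WRKY57*, a gene of drought tolerance, had 24.2 FPKM in ATP-treated and 25.8 FPKM in untreated *gpa1-2*, and 35.3 FPKM in ATP-treated and 26.1 FPKM in untreated WS, so that the ATP-treated WS value stood above the others. *WRKY51*, which with *WRKY50* represses jasmonate responses when oleic acid is low, likewise had its highest value in ATP-treated WS, at 15.7 FPKM, against 7.01 to 9.10 FPKM elsewhere. *WRKY56* lay between 15.3 and 22.5 FPKM and *WRKY24* between 11.3 and 23.3 FPKM, both lower with ATP in both genotypes. *WRKY28*, an activator of salicylic acid synthesis, lay between 1.74 and 3.52 FPKM, *WRKY8* between 0.573 and 1.40 FPKM, *WRKY13*, a gene of stem lignin formation, between 0.686 and 1.02 FPKM, and *WRKY50* between 0.566 and 1.102 FPKM. *WRKY50* had 2 to 4 reads in a column and was the only one of the 60 genes with fewer than 20 reads over the 4 columns.

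In group IIb 1 of 8 genes was called, *WRKY61*, as higher in WS. It had 17.8 FPKM in ATP-treated and 10.7 FPKM in untreated *gpa1-2*, and 15.5 FPKM in ATP-treated and 6.97 FPKM in untreated WS, with responses of 0.69 (interval 0.45 to 1.04) in *gpa1-2* and 1.05 (interval 0.81 to 1.52) in WS. The untreated values differed more than the treated ones. *WRKY36*, which acts in light and UV-B responses, had 68.4 FPKM in ATP-treated and 33.9 FPKM in untreated *gpa1-2*, and 69.5 FPKM in ATP-treated and 36.4 FPKM in untreated WS. It was just short of the threshold in both, with responses of 0.99 (interval 0.83 to 1.19) in *gpa1-2* and 0.92 (interval 0.76 to 1.12) in WS.

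*WRKY6*, a repressor of the phosphate exporter gene *PHO1*, was among the most abundant in every column, with 204.7 FPKM in ATP-treated and 169.3 FPKM in untreated *gpa1-2*, and 174.3 FPKM in ATP-treated and 161.1 FPKM in untreated WS. It was slightly higher with ATP in both, with responses of 0.27 in *gpa1-2* and 0.11 in WS. *WRKY72*, a gene of basal defence, was lower with ATP, at 42.4 FPKM in ATP-treated and 54.2 FPKM in untreated *gpa1-2* and at 40.0 FPKM in ATP-treated and 69.0 FPKM in untreated WS. *WRKY9* and *WRKY31* were higher with ATP in both genotypes without being called, *WRKY9* lying between 17.4 and 29.8 FPKM and *WRKY31* between 24.7 and 36.4 FPKM. *WRKY47* lay between 23.8 and 28.4 FPKM. *WRKY42*, which also regulates *PHO1*, had 2.06 FPKM in ATP-treated and 3.87 FPKM in untreated *gpa1-2*, and 2.93 FPKM in ATP-treated and 2.88 FPKM in untreated WS.

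None of the 7 genes of group IId, whose proteins bind calmodulin, was called in either genotype. The largest response in the group was that of *WRKY15*, with 41.5 FPKM in ATP-treated and 67.3 FPKM in untreated *gpa1-2*, and 40.6 FPKM in ATP-treated and 74.0 FPKM in untreated WS. It was lower with ATP in both, with responses of -0.68 (interval -0.86 to -0.54) in *gpa1-2* and -0.85 (interval -1.03 to -0.70) in WS. *WRKY11* and *WRKY17* are related negative regulators of basal defence. *WRKY11* had 122.4 FPKM in ATP-treated and 72.3 FPKM in untreated *gpa1-2*, and 92.3 FPKM in ATP-treated and 68.9 FPKM in untreated WS, higher with ATP in both. *WRKY17* had 105.0 FPKM in ATP-treated and 62.5 FPKM in untreated *gpa1-2*, and 74.8 FPKM in ATP-treated and 76.2 FPKM in untreated WS, so that it was higher with ATP in *gpa1-2* (response 0.74) and level in WS (response -0.03).

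*WRKY21* was higher with ATP by nearly the same amount in both genotypes, with responses of 0.64 in *gpa1-2* and 0.62 in WS at 10.8 to 18.1 FPKM. *WRKY7*, a further negative regulator of defence, lay between 17.9 and 27.4 FPKM and was also higher with ATP in both. *WRKY39*, a gene of heat tolerance, varied little, at 62.3 to 71.7 FPKM. *WRKY74* was low, at 0.471 to 1.48 FPKM on 6 to 19 reads.

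AT3G32090 and *WRKY45* were assigned to no group. AT3G32090 had 11.0 FPKM in ATP-treated and 16.9 FPKM in untreated *gpa1-2*, and 4.32 FPKM in ATP-treated and 26.1 FPKM in untreated WS. It was called lower in WS (response -2.35, interval -3.43 to -1.84) and not in *gpa1-2* (response -0.58, interval -1.19 to -0.06). The order of its 4 values, highest in untreated WS and lowest in ATP-treated WS, was that of several genes, among them *WRKY18*, *WRKY30*, *WRKY40*, *WRKY46* and *WRKY53*. *WRKY45*, which like *WRKY75* is induced by phosphate starvation, had 66.1 FPKM in ATP-treated and 108.3 FPKM in untreated *gpa1-2*, and 52.8 FPKM in ATP-treated and 75.7 FPKM in untreated WS. It was lower with ATP in both, with responses of -0.70 in *gpa1-2* and -0.51 in WS, and like *WRKY75* it was higher in *gpa1-2* than in WS in both treatments, although for *WRKY75* the interval after ATP (-0.05 to 0.52) includes no difference.

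**Figure D3:**
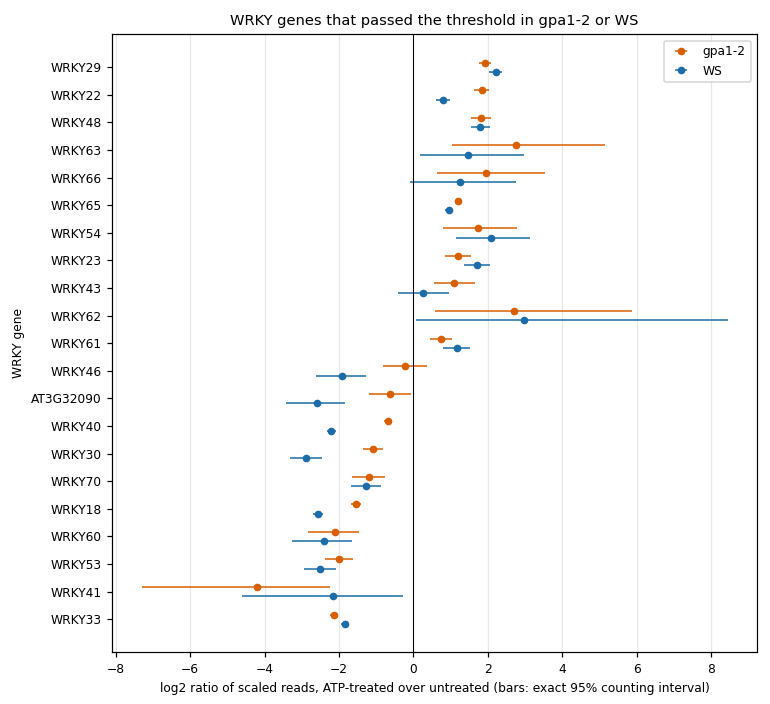
Log2 ratio of scaled reads, ATP-treated over untreated (x axis), for the 21 WRKY genes called in either genotype, with *gpa1-2* in orange above WS in blue. Points are the ratios and bars their exact 95% counting intervals; the bars are short for *WRKY33*, *WRKY18*, *WRKY40* and *WRKY65* and widest for *WRKY41*, *WRKY62* and *WRKY63*, and the *gpa1-2* and WS bars lie apart for *WRKY40*, *WRKY30*, *WRKY18*, *WRKY22*, *WRKY46*, *WRKY65* and AT3G32090, with *gpa1-2* to the right, and for *WRKY33*, with *gpa1-2* to the left.

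The medians of the structural groups lay on both sides of 0. The median response was -1.53 in *gpa1-2* and -2.19 in WS over the 3 genes of group IIa, and 0.73 in *gpa1-2* and 0.45 in WS over the 8 of group IIe. In *gpa1-2* it was -0.21 for group I, 0.29 for group IIb, 0.14 for group IIc and 0.35 for group IId. In WS it was 0.00 for group I, 0.20 for group IIb, 0.25 for group IIc and 0.15 for group IId. Group III had 0.19 in *gpa1-2* and -0.73 in WS, with members spread over -2.01 to 1.43 in *gpa1-2* and -2.61 to 1.37 in WS. Beside these stand the medians over all genes of 0.02 in *gpa1-2* and -0.01 in WS.

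**Figure D4:**
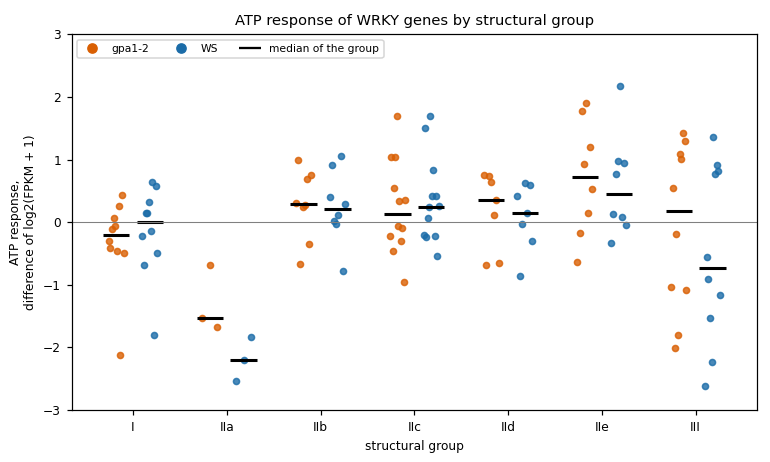
ATP response of each WRKY gene as the difference of log2(FPKM + 1) (y axis) by structural group (x axis), with *gpa1-2* in orange left of WS in blue. Each point is 1 gene, shifted sideways only to be visible, and bars are medians of the group; the 3 genes of group IIa all lie below 0, group III spreads to both sides, and group IIe lies mostly above 0.

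Without ATP only 1 of the 60 WRKY genes differed between the 2 genotypes by the threshold of 1, although several differed by less beyond counting error. The difference of log2(FPKM + 1), *gpa1-2* minus WS, had a median of -0.01 over the 60 genes, beside -0.02 over all genes. None of the 60 was called higher in *gpa1-2*, against 1.11% of all genes, and 1 (1.67%) was called lower, against 1.02%. That gene was *WRKY38*, 2.11-fold lower in *gpa1-2* at a difference of -1.003 (interval of the log2 read ratio -1.46 to -0.70), which is at the threshold and came to -0.97 with upper-quartile scaling. The next largest were *WRKY41*, higher by 0.95 (interval 0.38 to 2.39), *WRKY46*, with -0.77 (interval -1.42 to -0.39), *WRKY18*, with -0.76 (interval -0.85 to -0.68), *WRKY24*, with 0.75 (interval 0.42 to 1.17), and *WRKY40*, with -0.70 (interval -0.78 to -0.62). *WRKY18* and *WRKY40*, 2 of the most abundant WRKY genes, thus had less transcript in untreated *gpa1-2* than in untreated WS.

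After ATP the median difference between the genotypes was 0.10 over the 60 genes, beside 0.01 over all genes. In *gpa1-2*, 2 genes (3.33%) were called higher, against 1.25% of all genes, and none was called lower, against 1.34%. They were *WRKY30*, 3.40-fold higher in *gpa1-2* (difference 1.55, interval 1.31 to 2.24), and AT3G32090, 2.55-fold higher (difference 1.18, interval 0.52 to 2.24). *WRKY43* followed with 0.94 (interval 0.51 to 1.60) and *WRKY40* with 0.81 (interval 0.68 to 0.96). *WRKY51* had the largest difference the other way, -0.72 (interval -1.29 to -0.29). *WRKY40*, *WRKY18*, *WRKY46*, *WRKY22* and AT3G32090 were lower in *gpa1-2* than in WS without ATP and higher with it. Other genes changed side the other way, among them *WRKY41*, with 0.95 without ATP and -0.15 with it.

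**Figure D5:**
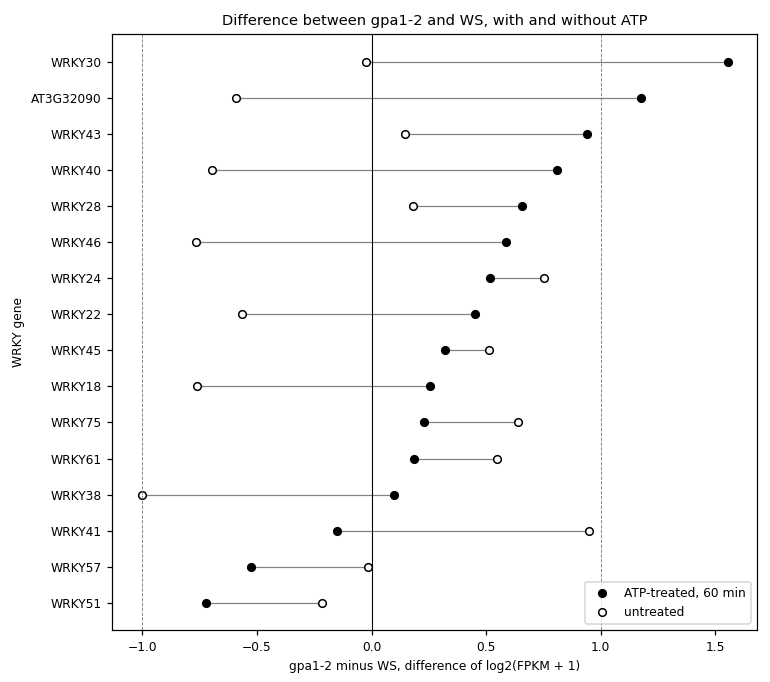
Difference between *gpa1-2* and WS, as *gpa1-2* minus WS in log2(FPKM + 1) (x axis), with ATP (filled) and without (open), for the 16 WRKY genes that differed by 0.5 or more in either treatment. Dashed lines mark a size of 1. Filled points of *WRKY30* and AT3G32090 lie beyond 1. For *WRKY40*, *WRKY46*, *WRKY22*, *WRKY18*, *WRKY38*, *WRKY30* and AT3G32090 the open points lie below 0 and the filled ones above, and for *WRKY41* the reverse holds.

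The response itself was compared as the response in *gpa1-2* minus that in WS, with an exact 95% interval for the log2 ratio of the 2 read ratios that again covers counting error only. All the comparisons draw on the same 4 columns and are not independent of one another. A difference of 1 or more upward was found for 7 of 60 genes (11.7%), against 2.8% of all genes, and downward for 1 (1.67%), against 3.03%. The median was 0.01 for WRKY genes and 0.03 for all genes. Of the 7, 5 were genes called lower in WS. For such a gene an upward difference by definition means a smaller fall, or a rise, in *gpa1-2*, and all 5 had a smaller fall. The difference was 1.77 for AT3G32090 (interval 1.00 to 2.98), 1.58 for *WRKY30* (1.28 to 2.31), 1.51 for *WRKY40* (1.36 to 1.68), 1.35 for *WRKY46* (0.78 to 2.61) and 1.02 for *WRKY18* (0.84 to 1.21). The other 2 were *WRKY38*, with 1.103 (0.66 to 1.70), and *WRKY22*, which was higher with ATP by more in *gpa1-2*, with 1.01 (0.76 to 1.33). The response differences of *WRKY18* and *WRKY22* were under 1 when the columns were scaled to a common upper quartile (0.95 for each) or quantile normalized (0.88 and 0.93 in that order). The gene with a difference downward was *WRKY41*, at -1.10 with an interval of -5.73 to 1.29 that includes no difference. Whether any of these exceeds the spread between replicates could not be tested. By contrast *WRKY33*, *WRKY60*, *WRKY53* and *WRKY70*, which were also called lower in WS, had smaller differences. That of *WRKY33* was -0.31 (-0.47 to -0.16), its fall being larger in *gpa1-2* beyond counting error, and the intervals of *WRKY60* (0.17, -0.76 to 1.39), *WRKY53* (0.43, -0.07 to 1.08) and *WRKY70* (0.08, -0.55 to 0.68) include no difference. Over all 60 genes the interval lay off no difference in 25, with the response higher in *gpa1-2* in 15 and lower in 10, a more even split than that of the differences of 1 or more. The like share over all genes was not computed, and the interval narrows as reads increase. The 25 therefore cannot be read as a trait of the WRKY genes.

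Other genes of WRKY signalling were taken from lists chosen with earlier results of these data known. VQ proteins bind WRKY proteins through a short motif and alter their activity. Of 31 VQ genes 27 reached 1 FPKM, of which 2 were called higher and 4 lower in *gpa1-2* (3.52% of all genes were called higher and 3.69% lower), and 1 higher and 5 lower in WS (3.67% of all genes higher and 4.18% lower). *MKS1*, which links the kinase MPK4 to WRKY33, had 16.0 FPKM in ATP-treated and 27.4 FPKM in untreated *gpa1-2*, and 12.2 FPKM in ATP-treated and 28.4 FPKM in untreated WS, and was called lower in WS (response -1.15) but not in *gpa1-2* (response -0.74). The VQ gene AT4G37710 had 47.5 FPKM in ATP-treated and 27.8 FPKM in untreated *gpa1-2*, and 15.2 FPKM in ATP-treated and 44.7 FPKM in untreated WS. It was thus higher with ATP in *gpa1-2* and lower with ATP in WS, with a difference between responses of 2.25. It was singled out as the largest such difference among the 27 VQ genes. Of the 27, 2 differed upward by 1 or more (2.8% of all genes) and 1 downward (3.03% of all genes). The downward one was AT1G21326, at -1.08, and the median was 0.12.

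Of 5 kinases upstream of WRKY proteins (*MPK3*, *MPK4*, *MPK6*, *MKK4* and *MKK5*), *MPK3* alone was called, as lower in both genotypes. Over all genes 3.69% were called lower in *gpa1-2* and 4.18% in WS, and 5 genes are too few to set against these shares. *MPK3* had 29.8 FPKM in ATP-treated and 68.5 FPKM in untreated *gpa1-2* (response -1.17), and 22.3 FPKM in ATP-treated and 91.1 FPKM in untreated WS (response -1.99). Among 7 genes used as readouts of WRKY activity, *CYP71A13* and *PR1* were below 1 FPKM in every column. Of the other 5, 1 was called higher and 2 lower in *gpa1-2*, and 2 higher and 1 lower in WS, a list too short to set against the shares over all genes of 3.52% higher and 3.69% lower in *gpa1-2* and 3.67% higher and 4.18% lower in WS. *PAD3*, the last enzyme of camalexin synthesis and a target of WRKY33, had 8.16 FPKM in ATP-treated and 3.07 FPKM in untreated *gpa1-2* (response 1.17), and 7.75 FPKM in ATP-treated and 1.49 FPKM in untreated WS (response 1.81), and so moved opposite to *WRKY33*. *ACS6*, an enzyme of ethylene synthesis whose gene WRKY33 also binds, had 26.7 FPKM in ATP-treated and 68.5 FPKM in untreated *gpa1-2* (response -1.32), and 27.9 FPKM in ATP-treated and 125.4 FPKM in untreated WS (response -2.13). *CYP71A12*, a camalexin gene, was called higher in WS, with 7.38 FPKM in ATP-treated and 1.04 FPKM in untreated roots, and had 1.32 FPKM in ATP-treated and 1.18 FPKM in untreated *gpa1-2*.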

How the data were processed

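Root RNA of ATP-treated and untreated *gpa1-2* and WS was described by the labels in 8 samples, 2 per condition. The authors deposited 2 tables, each with a scaled count, which is a signal rather than a raw count, and an FPKM value per gene and condition. Whether such a value combines the 2 replicates or comes from 1 of them is not given in the sources used here. The labels and methods describe hybridised arrays (MAS5 in the submitters' processing notes), which do not give such values, and the aligner, counter, annotation and build are not given in the sources used here. The authors' own fold changes, p-values and FDR columns were not used. Reads were recovered by dividing each scaled count by the smallest step of its column.

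From the deposited FPKM, log2(FPKM + 1) was compared over genes with at least 1 FPKM in any condition, and a difference of 1 or more in size was called. The design provided for model-based tests only if values per replicate existed, so none was run. Every WRKY gene is named, and full values with intervals are given to those called in either genotype or with the largest response of their structural group. Structural groups were to be read from protein sequences, but were taken from general knowledge of the family. The WRKY genes and the other gene lists were chosen with earlier results of these data known. Other pseudocounts, filters and scalings were tried. The scripts (Python 3.11.15, pandas 2.3.3, numpy 2.4.6, scipy 1.17.1) were tested on simulated data.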

Additional observations from a re-analysis of the deposited data

Results flagged for a closer look

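In 10 of the 60 WRKY genes the ATP response had opposite signs in *gpa1-2* and WS, and the difference between the responses was not tested, since there is 1 value per condition. The response in *gpa1-2* minus that in WS was 1.103 for *WRKY38*, 0.77 for *WRKY17*, 0.58 for *WRKY69* and 0.27 for *WRKY47*, positive in *gpa1-2* and negative in WS. It was -0.69 for *WRKY42*, -0.51 for *WRKY57*, -0.48 for *WRKY50*, -0.39 for *WRKY26*, -0.31 for *WRKY16* and -0.26 for *WRKY20*, negative in *gpa1-2* and positive in WS. *WRKY38* was the only 1 of the 10 in which the counting intervals of both read ratios lay off no change.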

How the results depend on the processing

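The counts of called WRKY genes were recomputed under 7 alternatives, which gives 70 counts in all. Of these, 56 stayed within 1.5 times the count reported. The alternative without a filter adds only genes below 1 FPKM in every column. Such genes cannot differ by 1 between 2 columns on log2(FPKM + 1). The counts of that alternative between 2 columns were therefore fixed in advance and say nothing about stability. With a pseudocount of 0.1 FPKM, 9 genes were called higher with ATP in WS, and without ATP 1 was called higher and 2 lower in *gpa1-2* than in WS. With a pseudocount of 5 FPKM, 4 were called higher and 3 lower with ATP in *gpa1-2*, 3 were called higher in WS, 0 were lower in *gpa1-2* without ATP and 1 (*WRKY30*) was higher with it, and the response difference was called upward in 3 (*WRKY30*, *WRKY40* and AT3G32090) and downward in 0. With that pseudocount only *WRKY29* and *WRKY48* were called higher in both genotypes, and only *WRKY18*, *WRKY33* and *WRKY53* lower in both. *WRKY23*, *WRKY30*, *WRKY54*, *WRKY60* and *WRKY70* were no longer called in both. With a filter of 10 FPKM, which 44 genes passed, 6 were called higher with ATP in *gpa1-2*. The downward difference of *WRKY41* gave 0 calls under that filter and with at least 20 reads. Under upper-quartile scaling 0 genes were lower in *gpa1-2* without ATP, since *WRKY38* was at -0.97, and in *gpa1-2* the responses of *WRKY23*, *WRKY43* and *WRKY62* were 0.998, 0.98 and 0.99 and that of *WRKY75* was -1.01 (also -1.01 with quantile normalization), while the response differences of *WRKY18* and *WRKY22* were 0.95 and 0.95; quantile normalization gave differences of 0.88 and 0.93. No paired analysis was possible because the tables hold 1 value per condition, and leaving out a replicate was not possible for the same reason. Depth limits *WRKY8*, *WRKY13*, *WRKY41*, *WRKY50*, *WRKY62*, *WRKY63*, *WRKY66* and *WRKY74* most.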
